A study of Mus musculus with 10 samples.

Results

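Collagen IV, laminins, nidogens and perlecan build the basement membrane, the thin sheet of matrix that underlies endothelium, wraps pericytes and muscle fibres, and surrounds nerves. RNA of 9 of its genes was read in B16 tumors from 5 Bach2-deficient and 5 wild-type samples. The genes were Col4a1, Col4a2, Lama4, Lama5, Lamb1, Lamc1, Nid1, Nid2 and Hspg2. They were taken by symbol: every probe set annotated to exactly 1 of these symbols was used, which gave 20 of the 34945 probe sets with a single symbol and 9 of 18193 genes. The genes were selected on these same arrays' expression difference between the genotypes, which was already known, so that difference is described for the 9 genes and is not tested: counts of them past a threshold are descriptions.

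B16 is a transplantable melanoma line that arose in C57BL/6 mice. Of the samples, 5 were B16 tumors labelled Bach2-deficient and 5 were B16 tumors labelled wild type, all on the C57BL/6 background. Age, sex, batch and animal are not labelled, nor is the lost part of Bach2, nor whether host or tumor cells lacked it. Whole tumors were broken up mechanically and total RNA was hybridised to 1-colour arrays, so each value mixes RNA of melanoma cells, vessels, stroma and leukocytes. P-values measure only the spread between these samples, which may be technical, and 5 arrays a group set how precise they can be.

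Basement membranes are assembled from separate protein networks. Laminins are trimers of an alpha, a beta and a gamma chain that polymerise at the cell surface; Lama4 and Lama5 encode the alpha chains of vessel laminins, and Lamb1 and Lamc1 encode beta and gamma chains that they share. Collagen IV, made mostly of the chains encoded by Col4a1 and Col4a2, forms a crosslinked network, while the nidogens and perlecan (Hspg2, a heparan sulfate proteoglycan) bridge that network to the laminins. In tumors these proteins are made by endothelial cells, pericytes, fibroblasts and, for some of them, by the tumor cells.

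Promoter windows (250 bases before to 50 bases after the start, RefSeq, GRCm38.p6) were found for 6 of the 9 genes. The Col4a1 and Col4a2 windows are shown because these 2 genes are transcribed in opposite directions from 1 stretch of DNA and had the most negative changes of the set. Capitals mark the 78 bases that both windows hold, read on each gene's own strand. The first lies at chr8:11312777-11313076 on the minus strand and the second at chr8:11312555-11312854 on the plus strand.
Col4a1: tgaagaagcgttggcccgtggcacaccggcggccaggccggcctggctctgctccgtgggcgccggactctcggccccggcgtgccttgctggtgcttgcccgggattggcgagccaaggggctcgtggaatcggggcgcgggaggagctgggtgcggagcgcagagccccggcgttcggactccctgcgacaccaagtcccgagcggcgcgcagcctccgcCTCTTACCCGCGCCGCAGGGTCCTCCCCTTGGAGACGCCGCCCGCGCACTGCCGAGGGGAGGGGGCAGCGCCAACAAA
Col4a2: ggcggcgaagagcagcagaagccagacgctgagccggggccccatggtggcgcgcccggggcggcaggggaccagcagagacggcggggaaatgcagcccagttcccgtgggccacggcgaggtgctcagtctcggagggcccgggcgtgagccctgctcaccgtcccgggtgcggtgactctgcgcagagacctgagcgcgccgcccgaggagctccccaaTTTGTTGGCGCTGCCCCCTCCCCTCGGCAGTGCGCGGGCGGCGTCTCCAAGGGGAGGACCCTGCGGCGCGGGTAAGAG
The start sites behind the windows lie 21 bases apart. Windows that overlap that of another gene on the other strand were found for 3212 of 27025 genes, or 11.9%. The letters GGGCGG (a GC box, searched on both strands) stood in all 6 windows, against 35.7% of 32851 windows of the same length, and the shared stretch holds a GC box that counts in both. The 6 windows had a GC content of 63.7% to 74.0%, against a median of 52.7% over all windows. CCAAT stood in 4 of the 6 windows and in 37.4% of all. TATAAA (in 13.6% of all windows), CACGTG (7.15%) and TGANTCA, the core of AP-1 and BACH elements (7.81%), were each in 0 of the 6, which says only that these letters are not in these windows.

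The medians of the arrays lay close together, the highest at 5.88 (log2). Bach2 itself, read at its brightest probe set, ran from 4.96 to 6.37 in Bach2-deficient tumors and from 5.93 to 7.78 in wild-type tumors. The groups overlapped, and the change of -1.07 (SE 0.38, limma adjusted p = 0.0551) did not pass. It passed without wild-type replicate 2 (-1.33), as the mean of its probe sets (-0.82), after repeated quantile normalization (-1.19) and with the dimmest 30% of genes left out (-1.07). The poly-A control transcripts, which are added to the RNA before labelling, read 9.93 to 10.2 on the Bach2-deficient arrays and 11.9 to 12.4 on the wild-type arrays. Xist, transcribed from the inactive X of females, was low on 4 Bach2-deficient arrays (4.76 to 6.61) and high on Bach2-deficient replicate 2 (11.9) and on all wild-type arrays (11.4 to 12.2). A technical difference behind the controls, and for 4 of the 5 Bach2-deficient arrays the sex of the RNA, cannot be told apart from genotype. A fit that adds Xist status (high or low) estimates genotype by comparing Bach2-deficient replicate 2 with the 5 wild-type arrays.

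The 9 genes read lower on average in the Bach2-deficient tumors. Their changes (log2, Bach2-deficient minus wild type) ran from -2.39 for Col4a1 to -0.13 for Lamc1, with a median of -1.33, where the median over all 18193 genes was -0.06. Col4a1, Col4a2, Lama4, Lamb1, Nid1 and Hspg2, 6 of 9, passed the limma threshold (adjusted p under 0.05 over all genes) and had groups that did not overlap; Lama5, Lamc1 and Nid2 did neither. Over all genes 12.4% passed as lower and 16.3% as higher, while 7.67% were lower and 11.2% higher without overlap. With the Xist term, under which 2.13% of all genes passed as lower and 5.66% as higher, 5 of the 9 passed and Lamb1 (-1.56, adjusted p = 0.0561, limma) did not. The plot of values by array shows the 6 separated pairs of clusters beside the 3 that overlap.

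**Figure D1:**
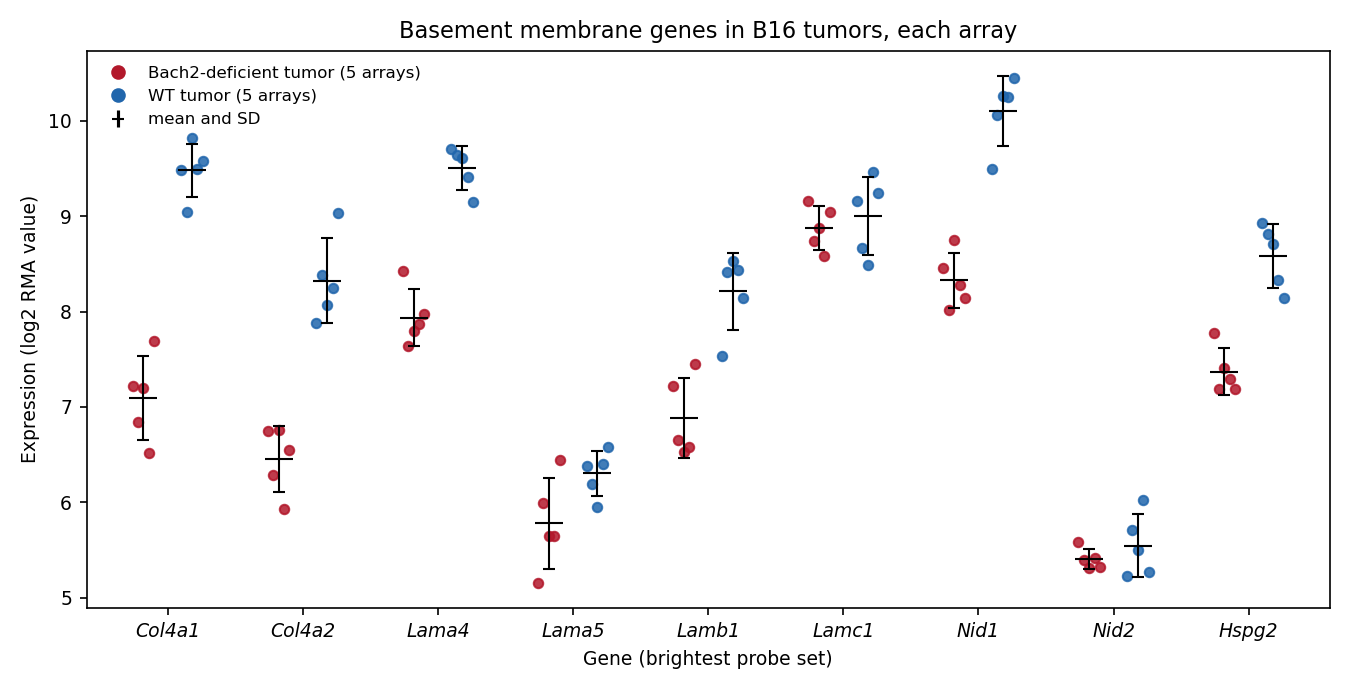
Expression (log2 RMA value) of the 9 basement membrane genes on each array, at the brightest probe set of each gene. Points are arrays (red, Bach2-deficient; blue, wild type; 5 each) and bars are the mean and SD. Col4a1, Col4a2, Lama4, Lamb1, Nid1 and Hspg2 do not overlap between groups, while Lama5, Lamc1 and Nid2 do.

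Col4a1 encodes the more abundant chain of the common collagen IV molecule. Its probe set 1452035_at read 7.22, 6.85, 7.20, 6.52 and 7.69 in Bach2-deficient replicates 1 to 5, against 9.48, 9.05, 9.82, 9.50 and 9.57 in wild-type replicates 1 to 5 (log2). Every Bach2-deficient tumor lay below every wild-type tumor, with a gap wider than the whole range of either group. The means were 7.10 ± 0.44 in Bach2-deficient tumors and 9.48 ± 0.28 in wild-type tumors (SD, n = 5 each), a change of -2.39 (SE 0.22), or 5.23-fold lower in Bach2-deficient tumors. The other Col4a1 probe set, 1426348_at, changed by -1.67 (SE 0.36), with 5.23 to 6.46 in Bach2-deficient tumors and 6.92 to 8.78 in wild-type tumors. That probe set varied more within each group, and no array of the 2 groups overlapped on it. With the Xist term its change was -1.50 and did not pass.

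Col4a2 encodes the partner chain. It read 6.74, 6.29, 6.76, 5.93 and 6.55 in Bach2-deficient replicates 1 to 5, against 7.88, 8.39, 8.07, 8.25 and 9.04 in wild-type replicates 1 to 5. The highest Bach2-deficient value lay more than 1 log2 unit below the lowest wild-type value. The means were 6.45 ± 0.35 in Bach2-deficient tumors and 8.32 ± 0.44 in wild-type tumors, a change of -1.87 (SE 0.23), or 3.66-fold lower in Bach2-deficient tumors. The promoter windows of this pair were printed above partly because of these changes, and a link of the shared stretch to them was not tested. The order of the genes is not firm, as with the Xist term Nid1 changed by -2.09 and Col4a2 by -2.03. Values of different probe sets are not compared as levels, so the ratio of the 2 chains was not read.

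Among the laminin genes, the groups did not overlap for Lama4 and Lamb1 and overlapped for Lama5 and for the brightest probe set of Lamc1. Lama4, an alpha chain typical of endothelial basement membrane, read 8.42, 7.64, 7.79, 7.87 and 7.97 in Bach2-deficient replicates 1 to 5, against 9.71, 9.64, 9.62, 9.41 and 9.15 in wild-type replicates 1 to 5. Replicate 1 was the highest of its group in both genotypes, and the groups did not overlap. The change was -1.57 (SE 0.16), or 2.96-fold lower in Bach2-deficient tumors. The dimmer Lama4 probe set 1424808_at changed by -1.03 (SE 0.24), and by -0.84 with the Xist term, where it did not pass. Its Bach2-deficient mean of 4.90 was below 4.98 (30% of genes average less than that over the arrays). The size of its change is therefore not exact.

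Lama5, the other vessel alpha chain of the set and one that epithelia also make, read 5.16, 6.00, 5.65, 5.65 and 6.44 in Bach2-deficient replicates 1 to 5, against 6.38, 6.20, 5.95, 6.40 and 6.58 in wild-type replicates 1 to 5. Bach2-deficient replicates 2 and 5 lay inside the wild-type range. The change was -0.52 (SE 0.22) and did not pass; it passed without Bach2-deficient replicate 5 (-0.69) and after repeated quantile normalization (-0.61), and was -0.31 with the Xist term. The other 2 Lama5 probe sets had both group means under 4.98 and changes of -0.46 and -0.19. Whether Lama4 and Lama5 differ in their change was not tested, because both changes come from the contrast that chose the set.

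Lamb1 encodes the beta chain that pairs with both alpha chains. Its probe set 1424114_s_at read 7.23, 6.65, 6.53, 6.58 and 7.45 in Bach2-deficient replicates 1 to 5, against 7.53, 8.42, 8.53, 8.43 and 8.15 in wild-type replicates 1 to 5. Wild-type replicate 1 lay close to Bach2-deficient replicates 1 and 5, and the other 4 wild-type arrays lay well above. The change was -1.33 (SE 0.24), or 2.51-fold lower in Bach2-deficient tumors. A second probe set, 1424113_at, changed by -1.24 (SE 0.17), again with no overlap. The remaining pair of Lamb1 probe sets differed less, by -0.35 for 1451241_at and -0.12 for 1446180_at, of which 1446180_at had both means under 4.98.

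Lamc1, the shared gamma chain, gave 2 readings. Its brightest probe set, 1423885_at, read 9.16, 8.74, 8.87, 8.58 and 9.04 in Bach2-deficient replicates 1 to 5, against 9.16, 8.66, 8.49, 9.46 and 9.24 in wild-type replicates 1 to 5. The groups lay on top of each other (change -0.13, SE 0.20, 95% interval -0.57 to 0.31). The second, 1423886_at, read 7.28, 7.04, 7.26, 7.04 and 7.28 in Bach2-deficient replicates 1 to 5, against 8.28, 7.76, 8.52, 7.98 and 8.23 in wild-type replicates 1 to 5. There the groups did not overlap and the change was -0.97 (SE 0.14). The files do not say which part of the transcript each probe set reads. Taken as the mean of both probe sets, Lamc1 changed by -0.55 and passed, so the count of 6 genes depends for Lamc1 on which probe set stands for the gene.

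Of the 2 nidogen genes, Nid1 had groups that did not overlap and Nid2 had groups that did. Nid1, the main laminin-to-collagen linker, read 8.46, 8.01, 8.75, 8.28 and 8.14 in Bach2-deficient replicates 1 to 5, against 9.50, 10.1, 10.3, 10.3 and 10.4 in wild-type replicates 1 to 5. All Bach2-deficient tumors lay below all wild-type tumors, with wild-type replicate 1 the lowest of its group. The change was -1.78 (SE 0.20), or 3.43-fold lower in Bach2-deficient tumors. The probe set 1448469_at changed by -0.81 (SE 0.22), with a Bach2-deficient mean of 4.44. Wild-type replicate 1 (4.45) overlapped the Bach2-deficient arrays there. The call was lost without Bach2-deficient replicate 2, 4 or 5 or wild-type replicate 2 (changes of -0.81 to -0.75) and with the Xist term (-0.91). The third, 1441519_at, was dim in both groups and changed by -0.29.

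Nid2, which is partly redundant with Nid1, had 1 probe set. It read 5.58, 5.39, 5.31, 5.42 and 5.33 in Bach2-deficient replicates 1 to 5, against 5.23, 5.71, 5.50, 6.02 and 5.27 in wild-type replicates 1 to 5. The wild-type arrays spread to both sides of the Bach2-deficient ones (SD 0.11 in Bach2-deficient and 0.33 in wild-type tumors). The change was -0.14 (SE 0.15, 95% interval -0.48 to 0.20).

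Hspg2, the perlecan core protein, read 7.78, 7.19, 7.41, 7.29 and 7.19 in Bach2-deficient replicates 1 to 5, against 8.93, 8.81, 8.71, 8.33 and 8.14 in wild-type replicates 1 to 5, at probe set 1418670_s_at. The groups did not overlap, and Bach2-deficient replicate 1 was the one nearest to wild type. The change was -1.21 (SE 0.18), or 2.32-fold lower in Bach2-deficient tumors. The dimmer probe set 1418669_at overlapped, with 5.69 to 6.06 in Bach2-deficient tumors and 5.59 to 6.43 in wild-type tumors and a change of -0.14 (SE 0.15).

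Taken as the mean of all probe sets, Nid1 changed by -0.96, Lamb1 by -0.76 and Hspg2 by -0.68. Over the 20 probe sets of the 9 genes, all changes were negative, with a median of -0.89 (all 34945 probe sets: -0.05). Of the 20, 11 passed as lower, against 10.1% of all probe sets (14.1% passed as higher), and 10 were lower without overlap, against 6.88% (9.81% were higher without overlap). The 4 probe sets with both means under 4.98 were among the 9 that did not pass. With the Xist term 7 of the 20 passed as lower, against 1.37% of all probe sets (3.93% passed as higher), and 2 of the dim probe sets changed sign (1427009_at of Lama5 to 0.07, 1446180_at of Lamb1 to 0.02).

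**Figure D2:**
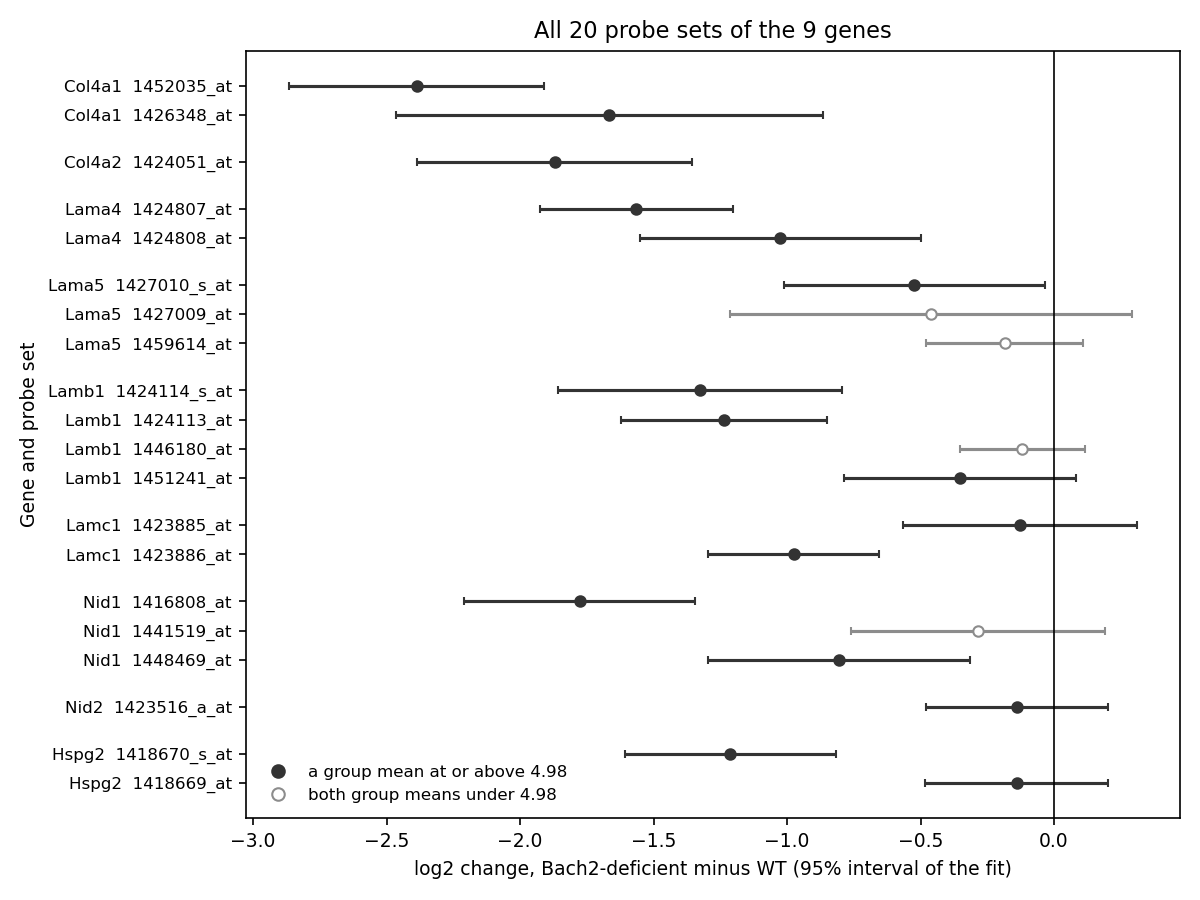
Change in log2 expression (Bach2-deficient minus wild type) of all 20 probe sets of the 9 genes, with the 95% interval of the fit. Filled points have at least 1 group mean at or above 4.98 and open points have neither. All 20 lie left of 0, and probe sets of the same gene differ in size, as for Nid1 (-1.78 to -0.29), Lamb1 (-1.33 to -0.12), Hspg2 (-1.21 and -0.14) and Lamc1 (-0.97 and -0.13).

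The variation between tumors of 1 genotype does not rest on the contrast that chose the set and was tested. Each gene's deviations from its 2 group means were set against those of each other gene over the 10 arrays (36 pairs, exact permutation within genotype, 2-sided). Of these pairs 23 had a positive r, the median r was 0.08, and 0 passed after Benjamini-Hochberg adjustment (2 had an unadjusted exact p under 0.05). Lama4 and Hspg2 had the highest r (Pearson 0.87, exact p = 0.00389, adjusted p = 0.14; Spearman 0.90, exact p = 0.00431, adjusted p = 0.155; r = 0.74 without the 2 arrays farthest from the median of Lama4). Hspg2 and Lama5 had the lowest (Pearson -0.67, exact p = 0.0231, adjusted p = 0.416; Spearman -0.71, exact p = 0.0208, adjusted p = 0.374; r = -0.58 without the 2 arrays farthest from the median of Lama5). Col4a1 and Col4a2, which share a promoter stretch, had a Pearson r of 0.36 (exact p = 0.305, adjusted p = 0.926) and a Spearman rho of 0.47 (exact p = 0.201, adjusted p = 0.899), with r = 0.10 without the 2 arrays farthest from the median of Col4a1. At this number of arrays no shared variation among the 9 genes within a genotype was detected beyond that between genotypes. Probe sets of the same gene did not always vary together either. Their r ran from -0.73 (1448469_at and the dim 1441519_at of Nid1) to 0.85 (1427010_s_at and 1427009_at of Lama5). It was 0.02 for Lamc1 and 0.43 for Col4a1. How well single probe sets read this variation thus also limits the test, and a lack of shared variation is not shown.

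The genes outside the set most like it were ranked by the Pearson r of their deviations with the mean deviation of the 9 genes, over 10 arrays, among 12726 genes not in the dimmest 30%. In order they were Mecom (0.97), Adamts20 (0.94), Dhtkd1 (0.94), Adgrl2 (0.94), Syde2 (0.94), Zfhx4 (0.94), Kazn (0.93), Antxr1 (0.93), Hoxa5 (0.93) and Prkci (0.93). These are descriptions: so many genes ranked over so few arrays give high values, and the 10 lie too close together to be ordered. Nor do all of the 9 follow their mean, as the r of each with the mean of the other 8 ran from -0.27 (Hspg2) to 0.57 (Lamb1). Mecom, a zinc-finger transcription factor gene, changed by -1.35 between the genotypes (limma adjusted p = 0.00885), and Antxr1, a collagen-binding membrane receptor gene, by -1.31 (limma adjusted p = 0.00510). Of the 10, 4 passed as lower (12.4% of all genes did) and 6 did not pass. With the Xist term none of the 4 passed (-1.83 for Mecom, -1.71 for Antxr1, -1.21 for Kazn and -1.29 for Hoxa5). As the mean of their probe sets Mecom changed by -0.64, Antxr1 by -0.65 and Kazn by -0.39. Kazn also lost its call without Bach2-deficient replicate 2, 3 or 4. Hoxa5 lost its call without replicate 2, 3 or 4 of either genotype and with the replicate number as a block. It was read at an _x_at probe set, whose probes may match other transcripts.

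Of the other laminin and collagen IV chains, 10 were measured, of which 1 fell and 0 rose, against 12.4% and 16.3% of all genes. The count of falls is thus near the share of all genes. Changes in this list ran from -0.88 to 0.31, with a median of -0.26, and a chain that did not pass is not shown to be unchanged. The chain that fell was Lamb2, a beta chain of muscle, nerve and vessel laminins (-0.67, SE 0.14, 6.29 ± 0.29 in Bach2-deficient and 6.96 ± 0.11 in wild-type tumors, SD, n = 5 each, limma adjusted p = 0.00595), a call lost with the Xist term (-0.87). Lama2, the alpha chain of muscle and nerve, changed by -0.25 (adjusted p = 0.354, limma). Of these 10 genes 6 were among the dimmest 30%. Without Bach2-deficient replicate 1, 3 fell and 1 rose.

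Of 19 other basement membrane proteins measured, 6 fell and 0 rose (all genes: 12.4% and 16.3%), with a median of -0.25 and 8 genes in the dimmest 30%. Npnt, encoding nephronectin, an integrin ligand, fell by 1.68 (SE 0.32, limma adjusted p = 0.00364). Pxdn, encoding peroxidasin, the enzyme that crosslinks collagen IV, fell by 1.63 (SE 0.29, limma adjusted p = 0.00256), to 5.39 ± 0.35 in Bach2-deficient tumors, against 7.02 ± 0.62 in wild-type tumors (SD, n = 5 each). Fbln2, a fibulin, fell by 1.47, the proteoglycan gene Agrn (agrin) by 0.73 and Col18a1, the source of endostatin, by 0.78, the last with a Bach2-deficient mean of 4.73. Sparc, a collagen-binding protein of basement membranes, changed by -0.22 (limma adjusted p = 0.0654) and passed under 4 alternatives: without Bach2-deficient replicate 1 (-0.26), with array weights (-0.26), with trended robust moderation (-0.22) and as the mean of its probe sets (-0.39). With the Xist term the calls of Npnt (-1.78), Pxdn (-1.26), Agrn (-0.95) and Col18a1 (-0.63) were lost. As the mean of their probe sets Npnt changed by -1.12, Fbln2 by -0.84 and Agrn by -0.41. Without that replicate 9 genes of the list fell and 1 rose.

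Enzymes and chaperones that fold, modify and crosslink collagen moved both ways. Of 20 measured, 8 fell and 2 rose (all genes: 12.4% and 16.3%), with a median of -0.32. The count of rises was thus not above the share of all genes. Lox, encoding lysyl oxidase, fell by 1.67 (SE 0.29, limma adjusted p = 0.00242), and its relative Loxl3 fell by 1.23. P3h3, a prolyl 3-hydroxylase family gene, fell by 1.36. Serpinh1, encoding the collagen chaperone HSP47, fell by 0.94 (SE 0.21, limma adjusted p = 0.00925; an _x_at probe set, whose probes may match other transcripts), and its change was -1.49 with the Xist term. Plod3, a lysyl hydroxylase that also adds sugars to collagen, rose by 0.73 (SE 0.15, limma adjusted p = 0.00519). P4ha1, a prolyl 4-hydroxylase subunit, rose by 0.42 (limma adjusted p = 0.0273), a call that was lost without Bach2-deficient replicate 2, 3 or 4 or wild-type replicate 1 or 3 (0.37 to 0.40), with the Xist term (0.55), as the mean of its probe sets (0.27) and after repeated quantile normalization (0.32).

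Receptors for basement membrane also moved both ways. Of 16 measured, 4 fell and 3 rose, with a median of -0.19. Over all genes 12.4% fell and 16.3% rose, so the rises were near the share of all genes. Sdc2, a syndecan, fell by 1.39, and the collagen receptor kinase genes Ddr1 and Ddr2 by 1.28 and 0.97. Ddr1 was read at 1 of its 8 probe sets, an _x_at probe set, and the groups overlapped for both kinase genes. Itga6, an alpha chain of laminin-binding integrins, fell by 0.84 (SE 0.16, limma adjusted p = 0.00388). Itga1, the alpha chain of a collagen IV-binding integrin that activated T cells also carry, rose by 1.69 (SE 0.28, limma adjusted p = 0.00180), to 9.57 ± 0.43 in Bach2-deficient tumors, against 7.88 ± 0.53 in wild-type tumors (SD, n = 5 each). The leukocyte marker list was higher on the same arrays, with a mean of 11.5 to 12.3 in Bach2-deficient and 9.56 to 10.7 in wild-type tumors, and its part in that rise was not tested. Itga2 (0.75) and Sdc4 (0.54) rose too. Omitting single arrays in turn ended the call of Itga2 in 7 of 10 cases (0.58 to 0.77 there) and that of Sdc4 in 6 (0.47 to 0.53). Itgb1, the beta chain that most of these integrins share, changed by 0.09 (limma adjusted p = 0.459) and Dag1, encoding dystroglycan, by -0.20 (limma adjusted p = 0.463). Without Bach2-deficient replicate 2, the receptor count was 3 falls and 1 rise, and Ddr2 (-0.89) did not pass. With the Xist term Itga6 (-0.50), Ddr2 (-1.32), Itga2 (1.14) and Sdc4 (0.70) did not pass. As the mean of their probe sets Ddr1 changed by -0.61 and Sdc2 by -0.88.

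Among matrix-degrading enzymes and their inhibitors, 6 of 12 measured genes fell and 1 rose (all genes: 12.4% and 16.3%), with a median of -0.72. Mmp2, a gelatinase that cuts collagen IV, fell by 1.39 (SE 0.20, limma adjusted p = 0.00110). The inhibitor genes Timp2 and Timp1 fell by 1.28 and 1.13. Timp1 lost its call with the Xist term (-1.02), and Timp2 changed by -0.78 as the mean of its probe sets. Hpse, encoding heparanase, which trims the heparan sulfate of perlecan, rose by 0.55 (limma adjusted p = 0.0481). That call was lost without Bach2-deficient replicate 2, 3, 4 or 5 or wild-type replicate 1, 2 or 3 (0.46 to 0.56) and with the Xist term (0.74), median centring (0.54) and repeated quantile normalization (0.49).

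**Figure D3:**
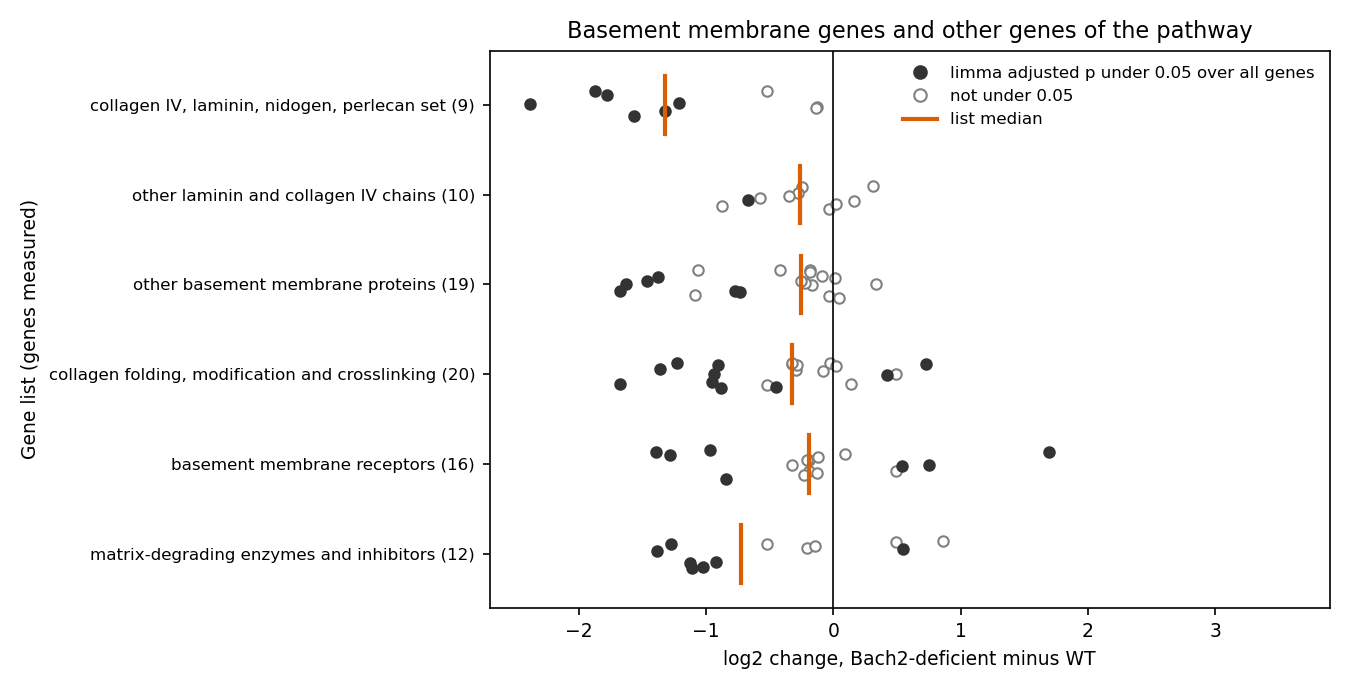
Change in log2 expression (Bach2-deficient minus wild type) of the 9 basement membrane genes and of the 5 lists of other pathway genes, 1 point a gene at its brightest probe set. Filled points passed the limma threshold over all genes, open points did not, and orange bars are list medians (-1.33 for the 9 genes and -0.72 to -0.19 for the other lists).

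Markers of the cell types that the tumors could hold were read on the same arrays. In these bulk samples fewer cells of a type and less RNA per cell cannot be told apart. Over all genes 12.4% fell and 16.3% rose, and the counts of every marker list below stand beside these shares. Of 20 endothelial markers, 8 fell and 2 rose, and the list mean ran from 5.11 to 5.38 in Bach2-deficient tumors and from 5.48 to 5.71 in wild-type tumors, with no overlap. Cdh5, encoding the endothelial junction protein VE-cadherin, fell by 0.66 (SE 0.17, limma adjusted p = 0.0156), with means of 3.93 in Bach2-deficient and 4.59 in wild-type tumors that are both in the dim range. That call was lost as the mean of its probe sets (-0.34) and with the Xist term (-0.41). The 2 that rose were Pecam1 and Flt1. Pecam1, which leukocytes also express, rose by 2.00 (SE 0.36, limma adjusted p = 0.00277). Flt1 rose by 2.06 (SE 0.47, limma adjusted p = 0.00954) at the brightest of its 4 probe sets, where the groups overlapped. Flt1 is named because it is 1 of only 2 and was picked after its value was seen. Of the endothelial list 8 genes were among the dimmest 30%.

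Of 14 pericyte and smooth muscle markers, 6 fell and 0 rose. The list mean ran from 5.60 to 5.76 in Bach2-deficient tumors and from 6.03 to 6.93 in wild-type tumors, again with no overlap. Rgs5, a pericyte regulator of G protein signalling, fell by 2.53 (SE 0.51, limma adjusted p = 0.00507) to a Bach2-deficient mean of 4.53. Pdgfrb, the pericyte growth factor receptor gene, fell by 0.61 (SE 0.17, limma adjusted p = 0.0214). Both calls were lost with the Xist term (-3.06 for Rgs5 and -0.56 for Pdgfrb), and Rgs5 changed by -1.53 as the mean of its probe sets. Of 14 fibroblast markers, 5 fell and 1 rose, and the list mean overlapped between groups (6.59 to 7.70 in Bach2-deficient tumors, 7.03 to 7.88 in wild-type tumors). The 1 that rose was Thy1 (3.32) and the largest fall was Col6a3 (-2.28), both picked after their values were seen. The rise of Thy1 lifts the list mean in Bach2-deficient tumors. The leukocyte marker list was higher on the same arrays (difference of means 1.78), and its part in the rise of Thy1 was not tested. That rise is therefore not a reading of fibroblasts alone. Col1a1, the main chain of collagen I, fell by 1.10 (limma adjusted p = 0.0433), a call that ended in 8 of 10 cases when single arrays were omitted (-1.21 to -0.81) and with array weights (-1.16); with the Xist term the change was -2.25.

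Melanocyte markers, which define B16 cells, were high on every array, with a list mean of 11.5 to 12.2 in Bach2-deficient tumors and 12.01 to 12.28 in wild-type tumors, and 4 of 12 fell. All 10 leukocyte markers rose, with a list mean of 11.5 to 12.3 in Bach2-deficient tumors and 9.56 to 10.7 in wild-type tumors; Ptprc, the pan-leukocyte CD45 gene, rose by 1.65 (SE 0.25, limma adjusted p = 0.00131). Red cell markers fell for 3 of 4 genes (list mean 4.17 to 5.79 in Bach2-deficient and 7.18 to 9.54 in wild-type tumors). Of the tissues next to a graft, adipocyte (1 of 6 fell), skeletal muscle (2 of 8 fell) and keratinocyte markers (0 of 7 passed) had list means of 5.18 to 5.37, 4.61 to 4.81 and 4.74 to 4.97 in Bach2-deficient tumors, against 5.29 to 5.52, 4.82 to 5.14 and 4.91 to 5.23 in wild-type tumors. Of 5 Schwann cell markers 2 fell and 2 rose, with list means of 9.19 to 9.71 in Bach2-deficient tumors and 8.76 to 9.37 in wild-type tumors. RMA values are never 0, so no marker can be called absent.

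**Figure D4:**
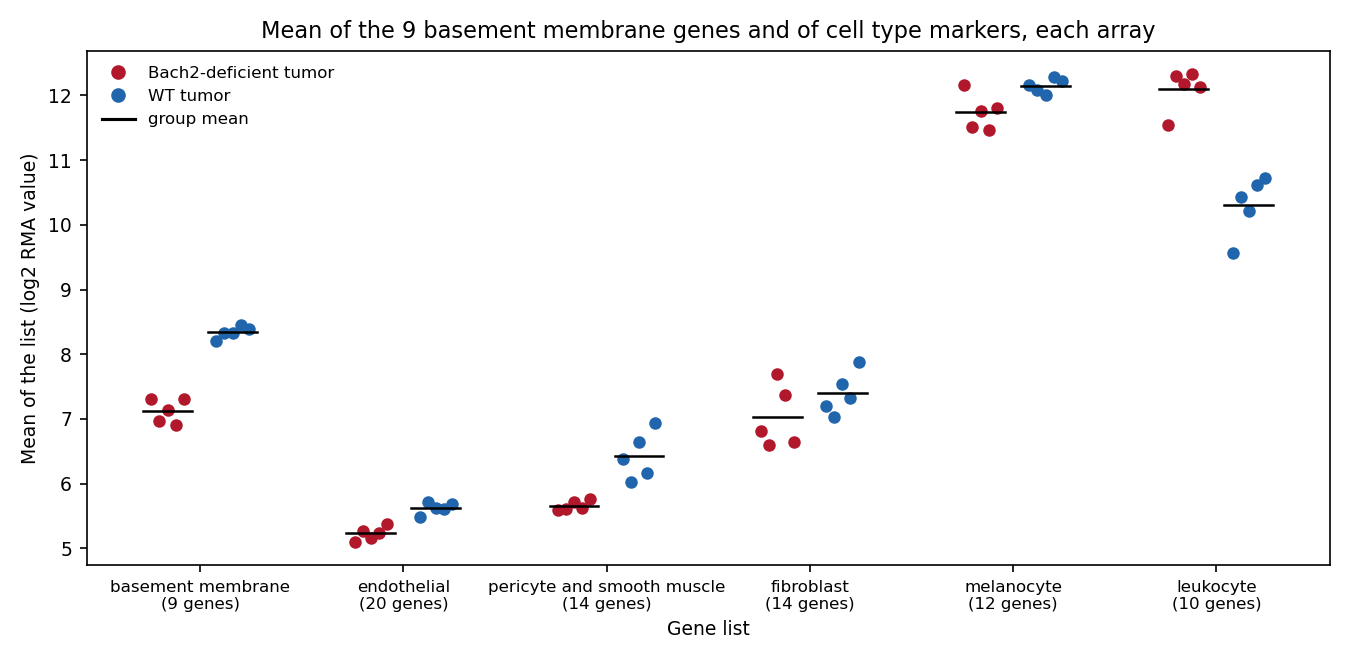
Mean log2 RMA value of the 9 basement membrane genes and of 5 marker lists on each array (red, Bach2-deficient; blue, wild type; black, group mean). The basement membrane mean (6.90 to 7.31 against 8.20 to 8.45) and the endothelial and pericyte means are lower in every Bach2-deficient tumor than in every wild-type tumor, the fibroblast and melanocyte means overlap, and the leukocyte mean is higher. Heights of different lists cannot be compared.

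The mean of the 9 genes was 7.13 ± 0.19 in Bach2-deficient tumors and 8.34 ± 0.094 in wild-type tumors (SD, n = 5 each), a difference of -1.21. On the same arrays the endothelial mean differed by -0.39, the pericyte and smooth muscle mean by -0.77, the fibroblast mean by -0.37 and the melanocyte mean by -0.41. The leukocyte mean differed by 1.78 and the red blood cell mean by -3.19. Genes that rose are part of the endothelial mean (Pecam1 and Flt1) and of the fibroblast mean (Thy1). The part of these cell types, of the poly-A controls and of the sex of the RNA in the values of the 9 genes was not tested. Bach2-deficient replicate 2, the array of that group with high Xist, lay below every wild-type array for Col4a1, Col4a2, Lama4, Lamb1, Nid1 and Hspg2. This follows from the lack of overlap already given for these genes and is not a separate test of the sex of the RNA.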

How the data were processed

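Expression values were deposited by the authors on a log2 scale, as their range (1.99 to 14.4) shows. RMA (background correction, quantile normalization and probe summary) and Partek are named, per the submitters' processing notes; for both, the version is not given in the sources used here. Values entered the fits without further normalization, and no detection calls were used. The 9 genes and all lists were chosen with earlier results of these data known.

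Probe sets with 1 symbol in the platform annotation (34945 of 45101) were kept. Control probe sets numbered 64, and 932 probe sets with several symbols and 9160 with none were left out; 34741 of those kept matched the RefSeq gene table. The brightest probe set by mean stood for each of 18193 genes. A linear model of genotype on the 10 arrays was run with limma 3.58.1 (R 4.3.3; lmFit, eBayes, 2-sided), and p-values were adjusted by Benjamini-Hochberg over all genes or all probe sets. The model code was tested on simulated data. Genes named were the 9, 17 fixed by name, the 3 largest called changes each way of each pathway list and the 10 most like the set. Flt1, Thy1 and Col6a3 are exceptions. RMA shrinks folds of dim genes. Alternatives were the mean of probe sets, median centring, repeated quantile normalization, leaving out the dimmest 30%, trended robust moderation, array weights, the replicate number as a block, an Xist term (log2 above or below 8) and leaving out each array.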

Additional observations from a re-analysis of the deposited data

Results flagged for a closer look

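In 160 groups of 5 arrays (probe sets of the 9 genes, other named genes and list means in each genotype), 7 held 1 array far from the rest; chance alone gives about 1 in 20. None of the 7 was a probe set of the 9 basement membrane genes. Bach2-deficient replicate 1 was the array in 4 of them. It read lowest for Ptprc (11.7, the others 12.3 to 12.5), for Itga1 (8.82, the others 9.61 to 9.88) and for the leukocyte list mean (11.5, the others 12.1 to 12.3), and highest for Loxl3 (7.81, the others 6.91 to 7.13). Among wild-type tumors, replicate 1 read lowest for Ptprc (9.65, the others 10.6 to 11.0), replicate 3 lowest for Mmp2 (7.18, the others 7.79 to 7.91) and replicate 4 highest for Antxr1 (11.4, the others 10.8 to 11.0).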

How the results depend on the processing

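Over 18 alternatives, 5 to 7 of the 9 genes passed, and all of their changes kept their sign. The median of the 9 ran from -1.56 (Xist term) to -0.76 (mean of probe sets). With the Xist term, 7 of the 20 probe sets passed, and 1427009_at (0.0655) and 1446180_at (0.0169) reversed. The Xist term also left 0 other laminin and collagen IV chains, 1 other basement membrane protein, 6 folding and crosslinking genes, 3 receptors and 2 degrading enzymes or inhibitors; it rests on 1 Bach2-deficient array. Calls fell over all genes in that fit, to 387 lower and 1030 higher, against 2264 and 2962 without the term. Of 33 other named genes that passed, 19 did not pass with it, and all 33 kept their sign. Array weights gave 3 other chains and 10 other basement membrane proteins, and the mean of probe sets, repeated quantile normalization and the replicate block each gave 2 other chains. Leaving out 1 array gave 1 to 4 other chains, 6 to 10 other basement membrane proteins and 4 to 8 receptors. Same-numbered arrays of the 2 genotypes correlated at 0.00619 to 0.323 in their deviations, and 4 of 10 arrays correlated best with their own number, so the numbers were not taken to pair the samples; with the replicate block 2842 genes rose and 2110 fell, against 2962 and 2264 without it. The cause of these shifts was not tested. Dim probe sets, with means under 4.98, limit what the sizes show.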
